A study of Saccharomyces cerevisiae with 12 samples.

Results

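Nuclear transfer RNA genes of budding yeast were followed by amino acid in strains that live without parts of a histone acetyltransferase module. The set holds every gene name of the deposited tables with a lower-case t, 1 amino acid letter, an anticodon in brackets and a letter for a nuclear chromosome, which gave 274 genes of 7126 features. These 274 genes served 20 amino acids with 41 anticodons. Another 24 tRNA names belonged to the mitochondrial genome and 1 nuclear name gave no anticodon, and these 25 were left out.

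The libraries came from MATα W303 yeast in 4 genotypes with 3 biological replicates each. Cells labelled epl1∆ sds3∆ carried epl1∆::kanMX and sds3∆::natMX, cells labelled esa1∆ sds3∆ carried esa1∆::HIS3 and sds3∆::natMX, and cells labelled esa1∆ epl1∆ sds3∆ carried all 3 deletions. WT cells carried none of these deletions, and their labels list the W303 markers ade2-1 and can1-100, together with his3-11 and a double leu2 allele as well as trp1-1 and ura3-1. All strains grew in synthetic complete medium at 24° to mid-log phase, and total RNA was depleted of ribosomal RNA before stranded sequencing. Every mutant group is labelled sds3∆, and libraries from cells with SDS3 alone deleted were not analysed here, so the part of each deletion cannot be told apart from that of sds3∆. Esa1 is the catalytic subunit of the NuA4 acetyltransferase, Epl1 is the subunit that holds it in the small form called piccolo NuA4, and Sds3 is part of the Rpd3L histone deacetylase, whose loss lets cells live without Esa1.

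Transfer RNAs are made by RNA polymerase III from promoters inside the gene, to which TFIIIC and then TFIIIB bind. The primary transcript is trimmed at both ends, receives CCA, is heavily modified and, for some tRNAs, loses a short intron next to the anticodon. Most anticodons are served by many genes with the same sequence, scattered over the chromosomes. Mature tRNAs are tightly folded and modified, and libraries of the kind used here are known to take them up poorly. Reads from precursor and mature forms could not be told apart in these values.

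The sequences of a few genes show what the values below refer to. They are RefSeq sequences of the R64 assembly, 5′ to 3′ on the coding strand, with the intron in capitals where there is one and the anticodon in capitals otherwise. The first pair are the only genes for the isoleucine anticodon UAU, shown because their change against WT was among the largest, and they differ at 1 base of the spliced sequence, A59T, counted from 1 at the 5′ end with tI(UAU)D first. They lie at chrIV:884361-884493 on the plus strand and chrXII:605300-605432 on the minus strand, each with a 60-base intron.

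tI(UAU)D: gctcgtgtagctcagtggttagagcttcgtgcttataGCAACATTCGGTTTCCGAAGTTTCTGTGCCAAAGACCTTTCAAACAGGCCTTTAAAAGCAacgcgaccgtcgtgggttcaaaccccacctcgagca

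tI(UAU)L: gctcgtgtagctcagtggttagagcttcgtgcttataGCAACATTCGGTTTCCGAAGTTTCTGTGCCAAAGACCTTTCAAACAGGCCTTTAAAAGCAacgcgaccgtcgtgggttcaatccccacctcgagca

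The lysine genes held the most reads. The next pair show the lysine gene with anticodon UUU on chromosome XV, at chrXV:438643-438738 on the plus strand with a 23-base intron, and a lysine gene with anticodon CUU, at chrXIII:480621-480693 on the minus strand with none. All 7 genes for UUU have the same spliced sequence, and all 14 genes for CUU are identical throughout.

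tK(UUU)O: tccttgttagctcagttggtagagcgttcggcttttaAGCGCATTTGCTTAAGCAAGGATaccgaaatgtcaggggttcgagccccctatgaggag

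tK(CUU)M: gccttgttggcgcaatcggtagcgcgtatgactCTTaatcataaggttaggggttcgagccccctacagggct

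The last pair are glycine genes, shown as examples of a large set of identical genes and of a smaller one. All 16 genes for GCC share the sequence given for chrXIII:183898-183968 on the minus strand.

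tG(GCC)M: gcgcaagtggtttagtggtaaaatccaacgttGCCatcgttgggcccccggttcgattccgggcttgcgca

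All 3 genes for UCC share the sequence given for chrXV:110962-111033, also on the minus strand.

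tG(UCC)O: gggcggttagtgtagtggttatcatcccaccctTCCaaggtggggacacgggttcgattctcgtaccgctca

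By the authors' deposited values, in reads per kilobase of gene and per 1000000 library reads (RPKM), nuclear tRNA genes were close to the floor of detection. The values came out as whole reads for 100% of the 1410 values above 0, within 0.01 read, when multiplied by the spliced length of the gene and by the library's reads. The library totals used are estimates, chosen as those that turn the RPKM of protein-coding genes into whole reads. For 8 names whose possible positions differ in length, the length nearest to whole reads was taken, so the match is no check of those. By these totals the libraries held between 8089179 and 14527280 reads, and the 274 genes together held 4787 reads in all 12. The median gene had 6 reads over the 12 libraries, 38 genes had none in any, and 80 had 12 or more. One read in a gene of 73 bases was worth between 0.943 and 1.69 RPKM, depending on the library. The targeted genes were checked first. EPL1 had 4 to 5 reads in libraries labelled epl1∆ sds3∆, 8 to 13 in those labelled esa1∆ epl1∆ sds3∆ and 73 to 142 in WT libraries, and ESA1 had 1 to 3 reads in libraries labelled with esa1∆ and 181 to 310 in WT libraries. SDS3 kept 36 to 77 reads in the 9 libraries labelled sds3∆, against 112 to 158 in WT libraries. These read numbers are not corrected for library size. In RPKM over the median-of-ratios factor used below, SDS3 had 4.007 to 7.889 in those 9 libraries. WT libraries had 8.504 to 9.347, so SDS3 was lower in the mutant libraries but far from absent. The mutant libraries are therefore called libraries labelled by their genotype throughout.

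Nuclear tRNA genes took a larger share of the libraries in all 3 mutant genotypes. In libraries labelled epl1∆ sds3∆ they held 4.22, 4.63 and 4.05 reads per 100000 reads. In libraries labelled esa1∆ sds3∆ they held 4.64, 4.44 and 4.33, and in libraries labelled esa1∆ epl1∆ sds3∆ they held 4.12, 4.32 and 4.38. WT libraries held 2.90, 2.25 and 2.72. Every mutant library lay above every WT library, and the 95% exact binomial intervals of the mutant libraries, 3.63 at their lowest, did not reach those of the WT libraries, 3.20 at their highest. These intervals cover counting error only.

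The group means were 4.30 ± 0.297, 4.47 ± 0.158 and 4.27 ± 0.134 per 100000 in libraries labelled epl1∆ sds3∆, esa1∆ sds3∆ and esa1∆ epl1∆ sds3∆, against 2.62 ± 0.335 in WT libraries (SD, n = 3 each). The means were 1.64, 1.71 and 1.63 times that of WT, and each exact two-sided permutation test gave p = 0.1, the smallest that 3 libraries against 3 can give. Per 100000 reads of protein-coding genes the values were 7.84 ± 0.568, 7.99 ± 0.323 and 7.92 ± 0.224 in the mutant groups in the same order, against 4.03 ± 0.507 in WT. Small nucleolar RNA genes moved with this share: they held 26.1% ± 0.279, 26.7% ± 1.05 and 27.4% ± 0.652 of the reads in the mutant groups, against 16.3% ± 0.434 in WT (SD, n = 3 each). Protein-coding genes held 54.9%, 55.9% and 54.0%, against 65.1% in WT. Their part in the tRNA result was not tested. In bulk RNA, fewer cells of a kind and less RNA per cell cannot be told apart.

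**Figure D1:**
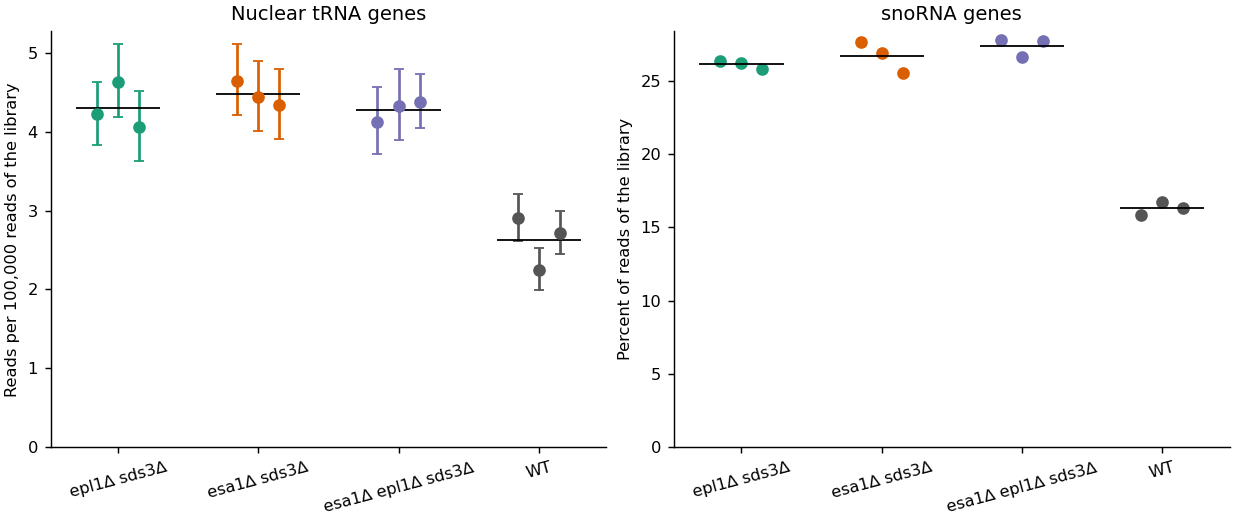
Left, reads in nuclear tRNA genes per 100000 reads of each library, with 95% exact binomial intervals; right, percent of reads in small nucleolar RNA genes; points are libraries and horizontal lines are group means of 3. All 9 mutant libraries sit above the 3 WT libraries in both panels, with tRNA values of 4.05 to 4.64 against 2.25 to 2.90.

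The reads were spread unevenly over the amino acids and over the genes of each. The 21 lysine genes held 1120 reads, 23.4% of the total, of which 781 lay in the 7 genes for UUU and 339 in the 14 for CUU. Isoleucine followed with 457 reads in 15 genes, glycine with 392 in 21, proline with 323 in 12 and serine with 270 in 18. At the other end, the 4 cysteine genes held 6 reads, the 16 alanine genes 43 and the 8 tyrosine genes 51. For isoleucine, 417 of the 457 reads lay in the 2 genes for UAU, while the 13 genes for AAU held 40.

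Over all 274 genes, the 20 genes with most reads held 2578 reads, 53.9% of the total. The 60 genes whose name falls in an intron-bearing class held 2014 reads, or 42.1%, and the other 214 held 2773. The intron-bearing genes had a median of 7 reads, and the others had a median of 5. No gene whose position could be set overlapped a protein-coding gene.

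**Figure D2:**
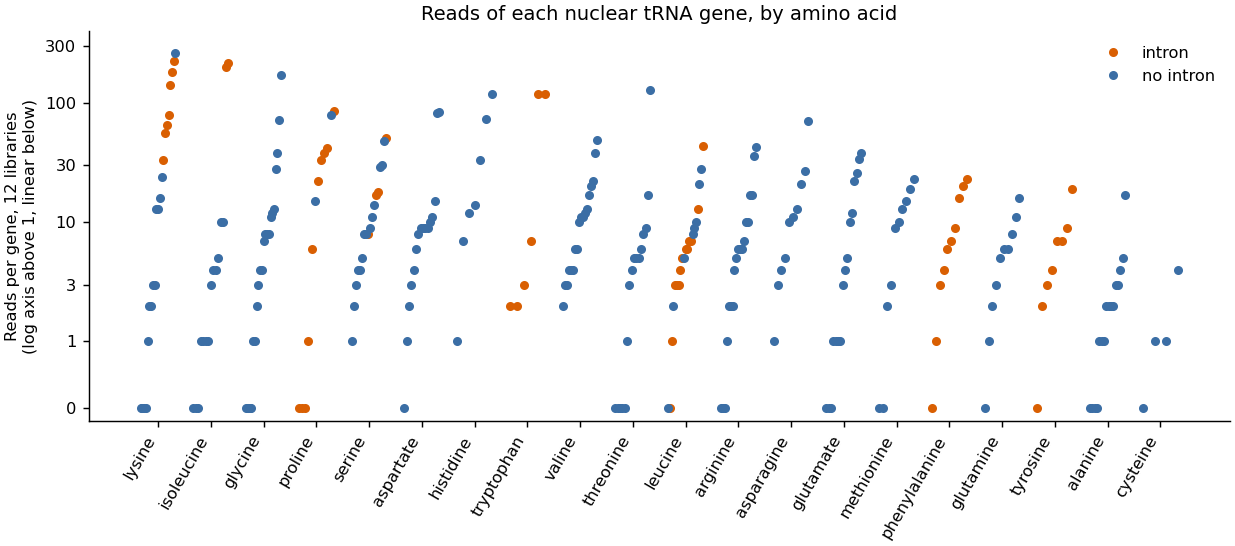
Reads of each of the 274 nuclear tRNA genes summed over 12 libraries (log axis above 1, linear below), by amino acid in order of total reads; colours mark intron-bearing and other genes. The 2 isoleucine genes for UAU stand apart from the 13 for AAU, and most amino acids hold genes both at 0 or a few reads and above 10.

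Copies of 1 sequence did not hold equal numbers of reads. For 10 anticodons with 6 or more genes, all genes have the same sequence, and the gene with most reads held between 25.0% and 77.3% of its anticodon's reads, where equal shares would be between 6.25% and 16.7%. Among the 14 identical lysine genes for CUU, tK(CUU)E1 held 262 of 339 reads, tK(CUU)M held 24, and tK(CUU)C, tK(CUU)D2, tK(CUU)E2 and tK(CUU)G2 held none. Among the 16 identical glycine genes for GCC, tG(GCC)P1 held 172 of 271 reads, tG(GCC)D2 held 38, and 4 held none. For tryptophan, tW(CCA)G1 held 120 reads and tW(CCA)P 118, while the remaining 4 of the 6 identical genes held 2 to 7. The sources used here do not say how reads that match several genes were assigned, so the values of single genes within such sets are uncertain, and how far the sums by anticodon depend on it was not tested.

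**Figure D3:**
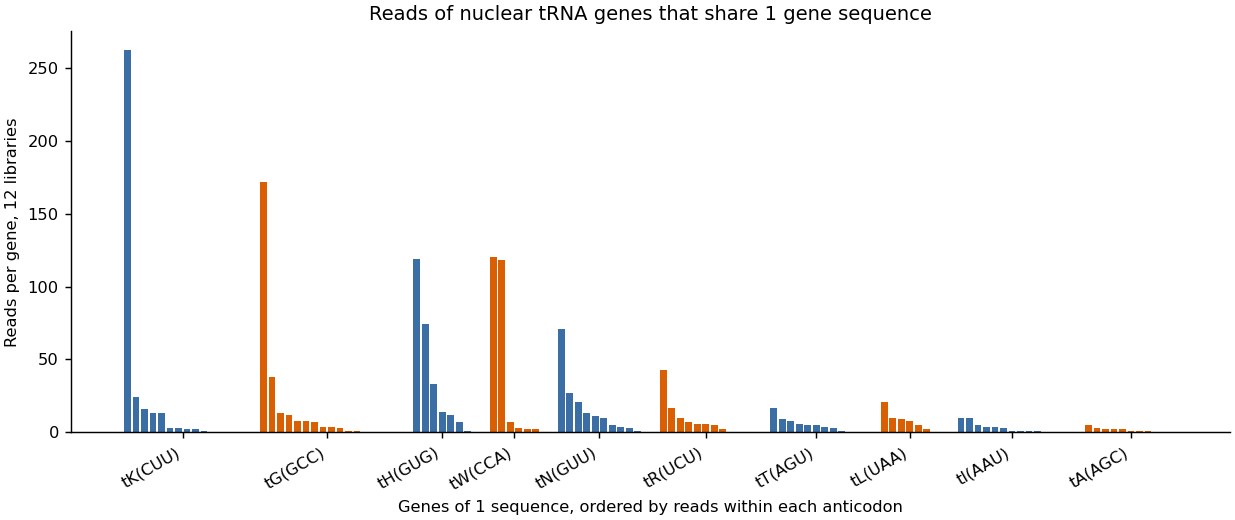
Reads per gene over 12 libraries for the 10 anticodons whose genes, 6 or more, share 1 gene sequence; each bar position is 1 gene, ordered by reads within its anticodon, and colours alternate between anticodons. The tallest bar is tK(CUU)E1 with 262 reads, beside 4 genes of the same sequence with none.

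Gene by gene, the levels were compared with limma on log2 (RPKM over a median-of-ratios factor + 1). A mean of 1 RPKM over the 12 libraries was asked for, which 103 of the 274 genes reached. Of these 103, 38 averaged under 1 RPKM in WT, so they passed through the mutant libraries, and their counts describe the genes tested and not the whole set. In libraries labelled epl1∆ sds3∆ against WT, 29 of 103 rose and 1 fell at an adjusted p under 0.05, which is 28.2% and 0.971%. Of all 5956 features tested, 30.1% rose and 30% fell there, so the share that rose was near that of all features and the share that fell was far below it. Genes near 0 in WT have little room to fall on this scale, and 4 of the 103 were at 0 in every WT library. The low share that fell, here and in the comparisons below, therefore cannot be told apart from an effect of the filter and the floor.

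In libraries labelled esa1∆ sds3∆ against WT, 23 of 103 rose and 2 fell, or 22.3% and 1.94%, beside 30% and 29.7% of all features. In libraries labelled esa1∆ epl1∆ sds3∆ against WT, 19 rose and 0 fell by limma, or 18.4% and 0%, beside 30.1% and 29.3% of all features. In that last comparison 1 gene was lower at an unadjusted p under 0.05, beside 31.6% of all features, and voom on the recovered reads also called 0 lower. The median log2 fold change of the 103 genes was 0.69, 0.68 and 0.56 in the 3 comparisons in the same order, against -0.01, -0.01 and 0.00 for all features. The log2 fold change was above 0 for 81, 78 and 79 of the 103 genes. Of all features, 49.7%, 49.7% and 50.2% lay above 0. Because 38 of the 103 passed the filter through the mutant libraries, these medians and signs also describe the genes tested and not the whole set. Without a filter on low values the medians were 0.41, 0.37 and 0.33 over 236 genes, and 0.89, 0.87 and 0.86 with voom and no filter. The 3 comparisons share their WT libraries. On RPKM as deposited the median of all features moved by -0.23, -0.23 and -0.19, that of the 103 genes was 0.56, 0.54 and 0.48, and in esa1∆ sds3∆ 18 rose and 4 fell. On that scale 19.7%, 19.5% and 21% of all features rose and 43%, 43% and 39.5% fell.

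**Figure D4:**
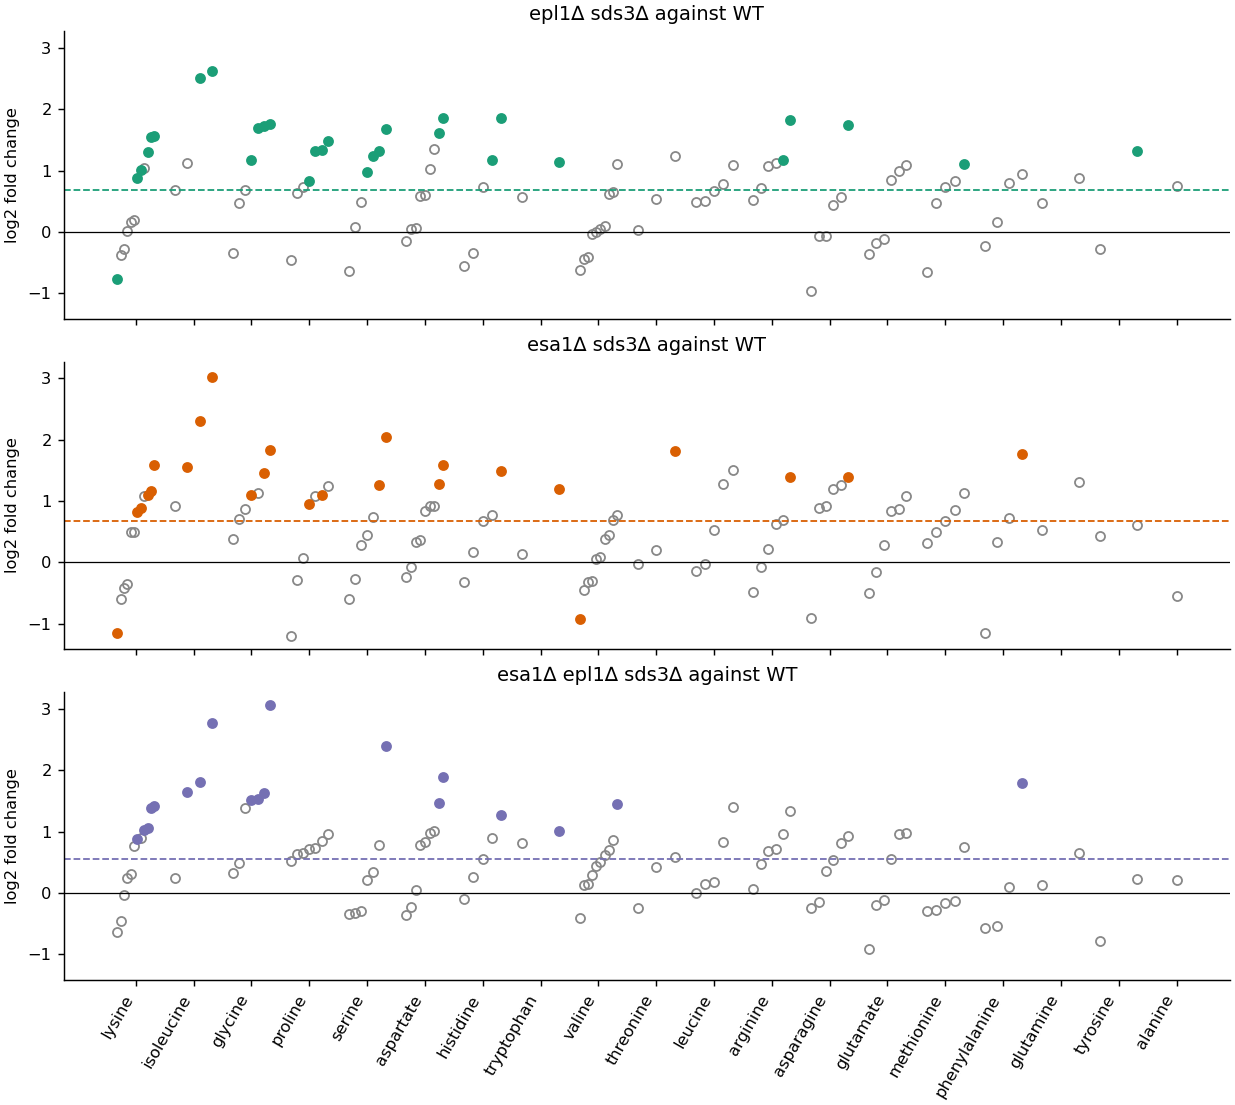
Log2 fold change (scaled RPKM + 1) of the 103 tested nuclear tRNA genes by amino acid, 1 panel for each mutant genotype against WT; filled points have an adjusted p under 0.05 by limma, open points do not, and the dashed line is the median of the 103. The medians lie at 0.69, 0.68 and 0.56, both tested isoleucine genes for UAU are filled in every panel, and lysine has points on both sides of 0.

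Between the mutant genotypes, no tRNA gene was called. None of the 103 reached an adjusted p under 0.05 by limma for esa1∆ sds3∆ against epl1∆ sds3∆, for esa1∆ epl1∆ sds3∆ against epl1∆ sds3∆, or for esa1∆ epl1∆ sds3∆ against esa1∆ sds3∆, where 0.118%, 0.0336% and 0% of all features were higher and 0.0672%, 0.101% and 0.0504% lower. At an unadjusted p under 0.05, 5 genes were higher in each of these comparisons, or 4.85% of the 103, beside 2.6%, 3.32% and 3.26% of all features. At the same limit 13, 8 and 8 genes were lower, or 12.6%, 7.77% and 7.77%, beside 2.13%, 3.19% and 3.07% of all features. Voom on the recovered reads also called 0. For esa1∆ sds3∆ against epl1∆ sds3∆, 1 gene passed the adjusted threshold as higher without a filter on low values, and 1 as lower without esa1∆ sds3∆ replicate 3. The absence of calls does not show that the mutants act alike.

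Summed by amino acid, between 7 and 10 of the 20 amino acids lay above WT without overlap in each mutant group, and 5 did in all 3. In libraries labelled epl1∆ sds3∆, 9 of 20 amino acids, 45%, had a share above that of every WT library, in those labelled esa1∆ sds3∆ 10 did, 50%, and in those labelled esa1∆ epl1∆ sds3∆ 7 did, 35%. Of all features tested, 30.4%, 31% and 32.1% lay above every WT library in these comparisons. No amino acid lay below every WT library in any of them, where 31.1%, 32.1% and 32% of all features did. The percentages of all features are for single features after median-of-ratios scaling. The amino acid shares are sums over genes per library reads without that scaling, so the percentages are not on the same scale. Isoleucine, glycine, aspartate, serine and leucine were higher without overlap in all 3 comparisons. Counting also those whose groups overlapped with WT, the mean was above that of WT in all 3 for 18 amino acids, the exceptions being valine and cysteine. The share of all features that does the same in all 3 comparisons at once is not given here. The counts of 5 and 18 are therefore description only, and the comparisons share their WT libraries.

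Isoleucine had the largest ratio to WT of the 20 amino acids in each comparison. Its genes held 0.488 ± 0.0451, 0.550 ± 0.0960 and 0.437 ± 0.0912 reads per 100000 in libraries labelled epl1∆ sds3∆, esa1∆ sds3∆ and esa1∆ epl1∆ sds3∆, against 0.0933 ± 0.0337 in WT (SD, n = 3 each), which is 5.23, 5.90 and 4.68 times WT. Both anticodons took part: the genes for UAU held 121, 132 and 128 reads over the 3 libraries of each mutant group, against 36 in WT, and those for AAU held 9, 15 and 14, against 2.

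tI(UAU)L had 23.3, 36.5 and 25.9 RPKM after scaling in libraries labelled epl1∆ sds3∆, and 34.2, 30.4 and 49.98 in those labelled esa1∆ sds3∆. It had 28.5, 29.4 and 36.3 in libraries labelled esa1∆ epl1∆ sds3∆, against 9.34, 1.02 and 3.99 in WT libraries. All 9 mutant values lay above the 3 WT values, which were themselves spread over 1 to 11 reads. Its log2 fold change was 2.63, 3.03 and 2.78 (SE 0.42 each) with limma adjusted p of 0.000172, 5.72e-05 and 0.000106 in the same order. The nearest protein-coding gene, BNA5, an enzyme of kynurenine metabolism 325 bases away, fell, with log2 fold changes of -1.87, -1.49 and -1.84 (limma adjusted p of 8.16e-07 or less).

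tI(UAU)D had 34.3, 33.2 and 42.6 scaled RPKM in libraries labelled epl1∆ sds3∆, and 20.2, 40.1 and 38.3 in those labelled esa1∆ sds3∆. It had 31.5, 14.7 and 23.5 in libraries labelled esa1∆ epl1∆ sds3∆, against 5.09, 6.14 and 5.58 in WT libraries. The groups did not overlap with WT, and the WT values kept close together. Its log2 fold change was 2.51, 2.30 and 1.82 (SE 0.26 each) with limma adjusted p of 5.45e-06, 1.1e-05 and 6.77e-05. Its neighbour at 233 bases, GCD6, a subunit of translation factor eIF2B, rose by 0.69, 0.63 and 0.74 (limma adjusted p of 0.000671 or less). Both calls for these isoleucine genes held under every alternative tried in all 3 comparisons.

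Glycine was among the 5 amino acids that lay above WT throughout. Its genes held 0.336 ± 0.0305, 0.367 ± 0.0760 and 0.474 ± 0.0662 reads per 100000 in the mutant groups in the same order, against 0.140 ± 0.0650 in WT, or 2.40, 2.62 and 3.38 times WT. tG(GCC)P1, the gene with most reads of its 16 identical copies, had 18.3, 25.6 and 17.1 scaled RPKM in libraries labelled epl1∆ sds3∆, and 31.998, 24.7 and 18.8 in those labelled esa1∆ sds3∆. It had 26.2, 31.96 and 25.2 in libraries labelled esa1∆ epl1∆ sds3∆, against 10.5, 7.37 and 7.38 in WT. All mutant libraries lay above WT, with log2 fold changes of 1.18, 1.46 and 1.62 (SE 0.20 each) and limma adjusted p of 0.000223, 4.06e-05 and 1.58e-05.

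tG(UCC)O passed in all 3 comparisons at lower levels. It had 9.74, 6.73 and 3.76 scaled RPKM in libraries labelled epl1∆ sds3∆ and 9.47, 3.25 and 10.1 in those labelled esa1∆ sds3∆. It had 15.2, 23.2 and 14.9 in libraries labelled esa1∆ epl1∆ sds3∆, against 4.30, 1.04 and 0 in WT. The 2 double-mutant groups overlapped with WT and the triple-mutant group did not. The log2 fold changes were 1.73, 1.84 and 3.06 (SE 0.52 each) with limma adjusted p of 0.0118, 0.00848 and 0.000261, and the first of these calls was lost without WT replicate 3 (adjusted p = 0.0551). The difference between mutant groups did not reach the threshold for this gene.

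Aspartate, serine and tryptophan each had a gene called higher in all 3 comparisons. tD(GUC)N, at chrXIV:519099-519169 on the minus strand and the only aspartate gene with its sequence, averaged 11.2 ± 2.60, 13.1 ± 10.3 and 13.98 ± 3.97 scaled RPKM in the mutant groups, against 3.08 ± 1.24 in WT, and the groups did not overlap with WT. It changed by 1.60, 1.59 and 1.89 on the log2 scale, at limma adjusted p of 0.00445, 0.00479 and 0.0015. tS(GCU)L, at chrXII:784354-784453 on the plus strand, had 1 read in each WT library and 2 to 14 in each mutant library, with log2 fold changes of 1.67, 2.05 and 2.40 and adjusted p of 0.000821, 0.000183 and 4.79e-05 by limma. RefSeq holds the same sequence at a nuclear gene of undetermined specificity, the gene left out for its missing anticodon. Because tS(GCU)L averaged under 1 RPKM in WT, it passed the filter through the mutant libraries, so its calls are description only. tW(CCA)G1 averaged 16.2 ± 0.964, 17.9 ± 7.31 and 14.9 ± 1.91, against 6.99 ± 1.85 in WT, with no overlap. The other tryptophan gene tested, tW(CCA)P, has the same sequence and passed in none of the 3 comparisons. The sum for tryptophan was 1.53, 1.54 and 1.72 times WT, and it overlapped with WT in each.

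**Figure D5:**
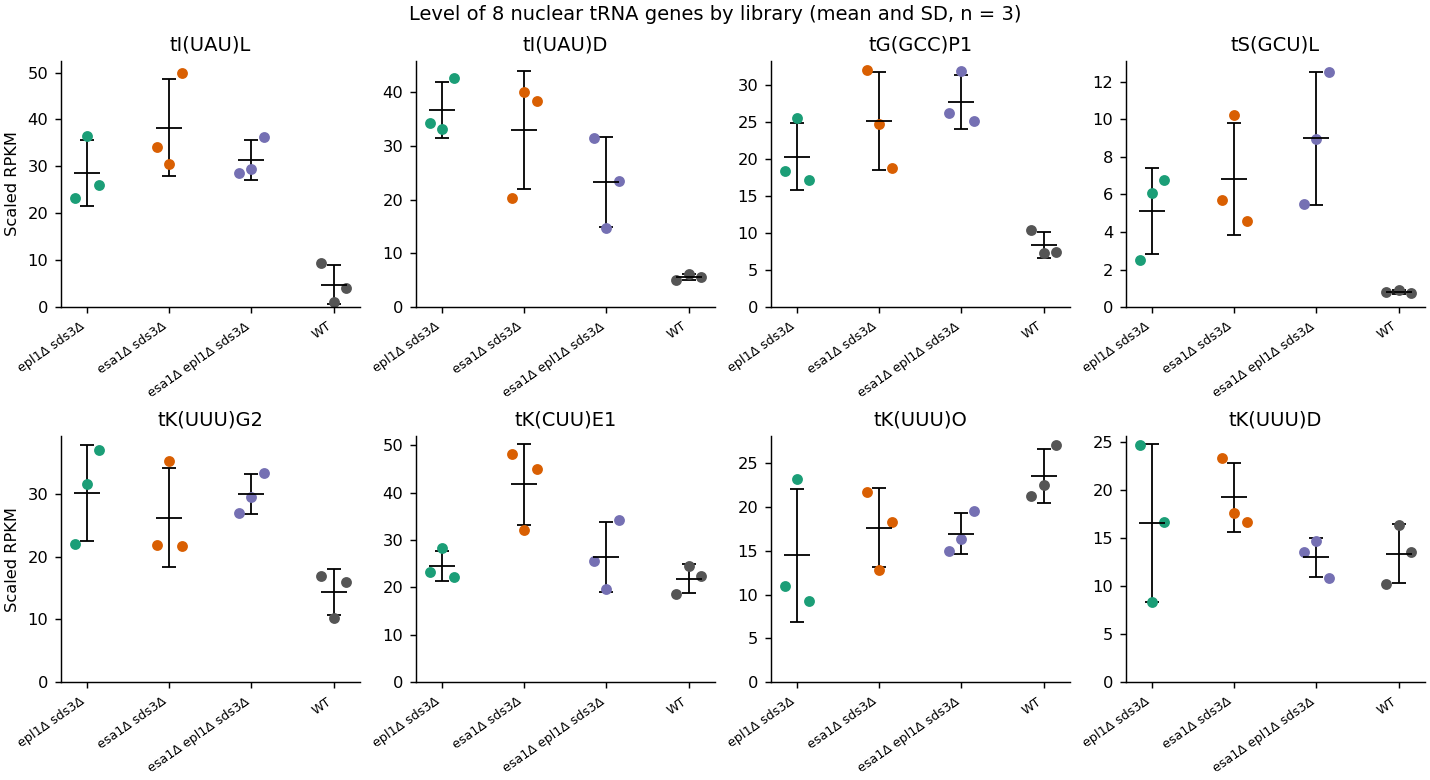
Scaled RPKM of 8 nuclear tRNA genes in each library (points), with mean and SD of 3, in the 3 mutant genotypes and WT. Both isoleucine genes, tG(GCC)P1, tS(GCU)L and tK(UUU)G2 lie above WT in all 9 mutant libraries, tK(CUU)E1 does so only in libraries labelled esa1∆ sds3∆, tK(UUU)O averages 23.6 in WT and less in each mutant group, and tK(UUU)D overlaps with WT in 2 groups.

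Lysine, the largest amino acid by reads, did not separate from WT in sum. Its genes held 0.890 ± 0.0749, 0.969 ± 0.135 and 0.910 ± 0.0950 reads per 100000 in the mutant groups, against 0.800 ± 0.111 in WT, or 1.11, 1.21 and 1.14 times WT, and the groups overlapped. Underneath that sum the 7 genes for UUU, alike in their spliced sequence, held calls in both directions. How reads that match several of these genes were assigned is not given, so the calls of single UUU genes, here and below, are uncertain. tK(UUU)G2 had 21.95, 31.5 and 37.05 scaled RPKM in libraries labelled epl1∆ sds3∆, and 21.8, 35.2 and 21.7 in those labelled esa1∆ sds3∆. It had 27.0, 29.4 and 33.3 in libraries labelled esa1∆ epl1∆ sds3∆, against 16.98, 10.2 and 15.9 in WT. It lay above WT throughout, with log2 fold changes of 1.02, 0.82 and 1.03 and limma adjusted p of 0.00193, 0.00769 and 0.00174, the middle one lost on RPKM as deposited (adjusted p = 0.057).

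tK(UUU)O had 11.0, 23.2 and 9.26 scaled RPKM in libraries labelled epl1∆ sds3∆, and 21.8, 12.8 and 18.3 in those labelled esa1∆ sds3∆. It had 15.004, 16.4 and 19.6 in libraries labelled esa1∆ epl1∆ sds3∆, against 21.2, 22.5 and 27.1 in WT. It was the 1 gene that fell in epl1∆ sds3∆, by 0.77 on the log2 scale (SE 0.27, limma adjusted p = 0.0245), although replicate 2 of that group overlapped with WT. The call was lost without WT replicate 3 (adjusted p = 0.0771), without epl1∆ sds3∆ replicate 1 (0.0893) and without its replicate 3 (0.115), and with voom on the recovered reads (0.0501). The log2 differences of -0.42 and -0.45 in the other comparisons did not pass, with adjusted p of 0.188 and 0.159.

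Of the remaining UUU genes, tK(UUU)L and tK(UUU)P rose in all 3 comparisons and tK(UUU)K in 2, with log2 fold changes between 0.87 and 1.57 in those calls. All 3 calls of tK(UUU)P were lost without WT replicate 1 and without WT replicate 2. Single calls were also lost without replicate 2 or 3 of epl1∆ sds3∆, without replicate 1 or 3 of esa1∆ sds3∆ and without replicate 3 of esa1∆ epl1∆ sds3∆, with adjusted p between 0.0572 and 0.172. With all libraries kept, its epl1∆ sds3∆ call was lost with a pseudocount of 5 (0.0563), on RPKM as deposited (0.125), with quantile normalization (0.0615), without a filter (0.0638), with voom (0.108, and 0.0865 without a filter) and in the fit of 2 groups (0.056). The tK(UUU)K call in esa1∆ epl1∆ sds3∆ was lost without WT replicate 2 or 3 or without replicate 1 or 2 of the mutant group (adjusted p between 0.0649 and 0.109), on RPKM as deposited (0.082) and with voom (0.0833, and 0.066 without a filter). tK(UUU)G1 fell in esa1∆ sds3∆, by 1.15 with an adjusted p of 0.0041 by limma, on 6 reads in that group against 27 in WT. tK(UUU)D passed in none. The sum for UUU was 1.11, 1.05 and 1.09 times WT, with overlap in each. Among the CUU genes, tK(CUU)M rose in all 3 comparisons, with 3.97 ± 2.27, 3.75 ± 0.921 and 3.35 ± 1.51 scaled RPKM in the mutant groups, against 0.624 ± 0.548 in WT, on 1 to 4 reads in each mutant library and 0 to 1 in each WT library. Its log2 fold changes were 1.54, 1.60 and 1.42 at limma adjusted p of 0.00472, 0.00395 and 0.00793. Because tK(CUU)M averaged under 1 RPKM in WT, it passed the filter through the mutant libraries, so these calls are description only. tK(CUU)E1 averaged 41.8 ± 8.57 in libraries labelled esa1∆ sds3∆, against 21.9 ± 2.97 in WT, a log2 fold change of 0.89 (limma adjusted p = 0.0016), and 24.6 ± 3.18 and 26.5 ± 7.38 in the other groups, which did not pass.

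Valine and cysteine had no common direction. Valine genes held 0.181 ± 0.0641, 0.157 ± 0.0298 and 0.233 ± 0.0469 reads per 100000 in the mutant groups, against 0.174 ± 0.0637 in WT. tV(UAC)D was the other gene that fell in esa1∆ sds3∆, with a log2 fold change of -0.93 and an adjusted p of 0.0345 by limma, on 2 reads against 9 in WT. The cysteine genes held 0, 0 and 3 reads in the mutant groups, against 3 in WT, too few for any statement. Histidine and proline each had genes that rose in some comparisons: tH(GUG)G2 averaged 17.2 ± 7.22, 12.5 ± 4.87 and 17.3 ± 0.831, against 6.91 ± 2.78 in WT, and passed for epl1∆ sds3∆ and esa1∆ epl1∆ sds3∆. In epl1∆ sds3∆ the values of tH(GUG)G2, which is 1 of 7 identical histidine genes, overlapped with WT. tP(UGG)H averaged 15.3 ± 5.14, 11.4 ± 2.53 and 7.95 ± 0.343, against 5.51 ± 2.06 in WT, and passed for epl1∆ sds3∆ and esa1∆ sds3∆.

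In 1 mutant group each, tN(GUU)P and tH(GUG)M rose in esa1∆ sds3∆, by 1.39 and 1.49 on the log2 scale, and tR(UCU)G2 rose in epl1∆ sds3∆, by 1.17, at limma adjusted p of 0.0125, 0.0229 and 0.0153. tN(GUU)P was lost without WT replicate 2 (adjusted p = 0.0686), and tR(UCU)G2 without WT replicate 2 (0.0625) or epl1∆ sds3∆ replicate 3 (0.072). tH(GUG)M was lost without WT replicate 1 or 3 or without esa1∆ sds3∆ replicate 1 or 3, at adjusted p between 0.0526 and 0.0871. The genes of the highest level for threonine, valine, leucine, glutamate, methionine, phenylalanine, tyrosine, alanine and glutamine passed in no comparison. tT(UGU)G2, the highest of these, averaged 16.96 ± 8.17, 12.5 ± 2.73 and 16.8 ± 4.48 scaled RPKM in the mutant groups, against 10.8 ± 2.63 in WT.

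Shares were also summed by class, and all but 1 of the classes below lay above all WT libraries in all 3 mutant groups. Differences between classes were not tested. Intron-bearing genes held 1.66, 1.64 and 1.57 times the WT share in the 3 mutant groups, and genes without an intron 1.62, 1.75 and 1.67 times. The 28 genes whose sequence occurs once held 2.63, 2.92 and 2.67 times the WT share, with 210, 233 and 256 reads in the mutant groups, against 122 in WT. Both isoleucine genes for UAU, with 417 of the 821 reads, belong to them. These 2 genes gave 121, 132 and 128 of the reads in the mutant groups and 36 in WT. The ratio of the class without them was not computed. Genes whose sequence occurs in 2 to 9 genes held 1.54, 1.48 and 1.45 times, and those whose sequence occurs in 10 or more held 1.57, 1.78 and 1.61 times. The exception was the 14 genes, with 372 reads, whose number of copies is not set by the name: they held 1.22, 1.12 and 1.32 times the WT share, and overlapped with WT in epl1∆ sds3∆ and esa1∆ sds3∆. The 171 genes below the limit of 1 RPKM, with 522 reads in all, held 1.69, 2.07 and 1.87 times the WT share.

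The genes that make and handle tRNA were read from 8 lists, all of whose members were tested. Of 17 subunits of RNA polymerase III, 13 passed as higher and 0 as lower in all 3 comparisons, with a median log2 fold change of 0.86, 0.82 and 0.83. RET1, a catalytic large subunit, had 47.6 ± 2.41, 46.6 ± 2.92 and 51.0 ± 0.638 scaled RPKM in the mutant groups, against 17.8 ± 1.8 in WT (SD, n = 3 each). RPC10, a small shared subunit, changed by 1.25, 1.40 and 1.35 and RPC31 by 1.05, 1.24 and 1.54. RPB5, RPC11, RPC34 and RPO26 passed in none. Of all features, 30.1%, 30% and 30.1% rose and 30%, 29.7% and 29.3% fell.

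The assembly factors moved in both directions, in shares no larger than those of all features. Of 11 genes for TFIIIA, TFIIIB, TFIIIC and the repressor Maf1, 1, 2 and 2 rose and 2, 3 and 3 fell, beside 30.1%, 30% and 30.1% of all features that rose and 30%, 29.7% and 29.3% that fell. TFC3, the TFIIIC subunit that binds the B box, fell by 0.76, 0.85 and 0.78 on the log2 scale, and TFC7, another TFIIIC subunit, fell by 0.43, 0.56 and 0.53. PZF1, which is TFIIIA and serves the 5S RNA gene, rose by 0.56, 0.57 and 0.71, and its first 2 calls were lost on RPKM as deposited (adjusted p = 0.084 and 0.0753). On that scale 0, 0 and 1 of the 11 rose and 4, 4 and 3 fell, where 19.7%, 19.5% and 21% of all features rose and 43%, 43% and 39.5% fell.

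Of 19 genes for end processing and splicing, 11, 10 and 10 rose and 2, 4 and 2 fell, beside 30% to 30.1% of all features that rose and 29.3% to 30% that fell. POP1, a protein subunit of RNase P, which cuts the 5′ leader, rose by 1.16, 1.09 and 1.10. On RPKM as deposited the counts were 7, 6 and 8 higher and 4, 4 and 2 lower, beside 19.5% to 21% of all features higher and 39.5% to 43% lower. SEN54, a subunit of the splicing endonuclease, fell by 1.05, 1.00 and 0.97. LHP1, the La protein that binds the 3′ end of the precursor, rose by 1.24, 1.10 and 1.01. Of 3 nuclear transport receptors of tRNA, MTR10 and MSN5 fell in each comparison and LOS1 did not pass, and the MSN5 call in epl1∆ sds3∆ was lost without WT replicate 3 (adjusted p = 0.0974) and without epl1∆ sds3∆ replicate 1 (0.0711) or 2 (0.066).

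Of 50 modification genes, 35, 37 and 36 rose and 4, 4 and 3 fell, with a median log2 fold change of 0.71, 0.72 and 0.67. Of all features 30% to 30.1% rose and 29.3% to 30% fell. On RPKM as deposited 25, 30 and 28 rose and 8, 7 and 5 fell, where 19.7%, 19.5% and 21% of all features rose and 43%, 43% and 39.5% fell. SMM1, a dihydrouridine synthase, rose by 1.32, 1.34 and 1.16, TRM6, of the m1A methyltransferase, by 1.55, 1.44 and 1.44, and TRM2, which makes ribothymidine, by 1.13, 0.98 and 1.18. Of 7 decay genes, 4 rose and 2 fell throughout (in esa1∆ sds3∆ 4 and 3 on RPKM as deposited): RAT1, the nuclear 5′ exonuclease, rose by 1.03, 0.97 and 1.13, and XRN1, its cytoplasmic counterpart, fell by 0.53, 0.60 and 0.61. MTR4, the helicase that feeds the nuclear exosome, rose by 0.94, 0.90 and 0.95. Of 22 cytosolic aminoacyl-tRNA synthetase genes, 3, 2 and 2 rose and 11, 11 and 13 fell, beside the 29.3% to 30% of all features that fell. On RPKM as deposited 1, 0 and 0 rose and 16, 17 and 17 fell, beside the 39.5% to 43% of all features that fell there. ARC1, a cofactor of 2 synthetases, fell by 0.63, 0.48 and 0.55, DPS1, for aspartate, by 0.53, 0.57 and 0.56, and WRS1, for tryptophan, by 0.83, 0.75 and 0.80.

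The other RNAs made by RNA polymerase III were SNR52, SNR6, SCR1 and RPR1. SNR52, a small nucleolar RNA, had 122 ± 23.2, 125 ± 19.7 and 126 ± 6.45 scaled RPKM in the mutant groups, against 44.8 ± 9.06 in WT, and rose by 1.43, 1.47 and 1.49. SNR6, the U6 spliceosomal RNA, rose by 1.06, 1.02 and 1.27. SCR1, the RNA of the signal recognition particle, which alone held 16.7% to 17.7% of the reads in the mutant groups on average, against 16.2% in WT, rose by 0.38, 0.30 and 0.32, and RPR1, the RNA of RNase P, by 0.27 in epl1∆ sds3∆ only. All calls of SCR1 and RPR1 were lost on RPKM as deposited, where SCR1 changed by 0.12, 0.04 and 0.12, with adjusted p of 0.0999, 0.578 and 0.108, and RPR1 by 0.01, with an adjusted p of 0.945. RPR1 was at -0.16 with quantile normalization (adjusted p = 0.114). SCR1 calls were also lost without WT replicate 1 or 3 or without replicate 3 of the mutant group in esa1∆ sds3∆ (adjusted p up to 0.122) and in esa1∆ epl1∆ sds3∆ (up to 0.0862). The RPR1 call was lost without WT replicate 1 (0.157) or epl1∆ sds3∆ replicate 3 (0.168). No gene of the 8 lists differed between mutant groups at an adjusted p under 0.05.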

How the data were processed

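Per the labels' protocols, ribosome-depleted total RNA was made into stranded libraries, in biological triplicate. The authors deposited 1 table of RPKM values per library, and cutadapt, STAR and Bowtie 0.12.2 are listed in the submitters' processing notes without their roles. How reads that match several genes were assigned is not given in the sources used here. RPKM values were turned back into reads with the spliced length and a library total estimated from the RPKM of protein-coding genes. tRNA names were matched to RefSeq R64 by amino acid, anticodon and chromosome, and 151 of 274 had 1 possible position. The main test was limma 3.58.1 (R 4.3.3) on log2(RPKM over a median-of-ratios factor + 1), with features averaging 1 RPKM or more, all 12 libraries in 1 fit without a replicate block, and Benjamini-Hochberg adjustment over 5956 features. The fit was tested on simulated data with changes only in features of a mean of at least 10 RPKM. Only 12 nuclear tRNA genes reach that level, so the simulation does not cover most of them. Total reads set the precision: about 1 RPKM is 1 read in a tRNA gene. Genes were named if among the 10 largest changes per direction past the threshold, with a group mean of 10 RPKM and groups that did not overlap, among the 10 highest levels, or highest for their amino acid; of each list, up to 3 genes of smallest adjusted p. Genes called lower or given for their anticodon were chosen after their values were seen. The members and lists were chosen with earlier results of these data known. Among the comparisons with WT, only esa1∆ sds3∆ had every correlation of same-numbered deviations over 0.1 (0.124, 0.125 and 0.182). Correlations this small do not settle whether the replicate numbers mark pairs, so a fit with a block is given below. Alternatives were 2 other pseudocounts, other scalings and filters, voom on reads, 2-group fits, the block and each library left out.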

Additional observations from a re-analysis of the deposited data

How the results depend on the processing

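Over the comparisons with WT, 91 of 108 calls of named genes kept their direction and their side of the threshold under all alternatives. The other 17 were lost under 1 or more. These calls include those of the named genes that make and handle tRNA. They leave out tK(UUU)G1, tV(UAC)D, tK(CUU)M and tK(UUU)L. The number of tRNA genes called lower in esa1∆ sds3∆, 2 in the main fit, was 1 with a pseudocount of 0.1, with voom and without WT replicate 2. Only RPR1 in epl1∆ sds3∆ changed sign, to -0.16 with quantile normalization (adjusted p = 0.114); the cause was not tested. Depth is one limit: 171 genes lay under 1 RPKM, and pseudocount and filter act on values of a few reads. The values below are for epl1∆ sds3∆, esa1∆ sds3∆ and esa1∆ epl1∆ sds3∆ against WT in that order.

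The median log2 fold change of the tested tRNA genes was 0.69, 0.68 and 0.56. It was 1.04, 0.94 and 0.91 with a pseudocount of 0.1, and 0.32, 0.27 and 0.25 with a pseudocount of 5. It was 0.56, 0.54 and 0.48 on RPKM as deposited, and 0.57, 0.55 and 0.46 with quantile normalization. Without a filter on low values it was 0.41, 0.37 and 0.33, and with a minimum mean of 10 RPKM 1.08, 0.85 and 1.02. It was 1.13, 1.08 and 0.91 with voom on the recovered reads, and 0.89, 0.87 and 0.86 with voom and no filter. Leaving out 1 library at a time gave 0.57 to 0.65, 0.53 to 0.74 and 0.46 to 0.58.

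Genes called higher numbered 29, 23 and 19. They numbered 7, 8 and 7 with a minimum mean of 10 RPKM, where fewer genes are tested, and 45, 47 and 31 with voom and no filter. With 1 library left out they numbered 23 to 30, 17 to 25 and 15 to 21. Genes called lower numbered 1, 2 and 0. They numbered 2, 4 and 1 on RPKM as deposited and 4, 5 and 3 without a filter. With a minimum mean of 10 RPKM 0 were lower in esa1∆ sds3∆. With voom 0, 1 and 0 were lower, and with voom and no filter 1 was lower in esa1∆ sds3∆. With a pseudocount of 0.1 it was 1 in esa1∆ sds3∆, and with a pseudocount of 5 it was 1 in esa1∆ epl1∆ sds3∆. In fits of only the 2 groups compared 2 were lower in epl1∆ sds3∆ and 2 in esa1∆ epl1∆ sds3∆. With 1 library left out the counts were 0 to 2, 1 to 4 and 0 to 1. Between mutants the counts of 0 held, except that 1 gene was higher in esa1∆ sds3∆ than in epl1∆ sds3∆ without a filter, and 0 to 1 were lower with 1 library left out.

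With the replicate number as a block, 30, 27 and 23 genes were higher and 1, 3 and 1 lower. Same-numbered libraries of epl1∆ sds3∆ and WT had correlations of 0.289, -0.0798 and 0.26. Those of esa1∆ epl1∆ sds3∆ and WT were 0.156, 0.0504 and 0.187, and whether same-numbered libraries form pairs is not settled by these values. The share of nuclear tRNA genes was 7.84, 7.99 and 7.92, against 4.03 in WT, per 100000 reads of protein-coding genes. Without the 10 genes of the highest mean it was 2.76, 2.78 and 2.71, against 1.65 in WT, per 100000 reads. With 1 library left out it was 4.14 to 4.42, 4.39 to 4.54 and 4.22 to 4.35, against 2.48 to 2.81 in WT.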
